A study of Mus musculus with 6 samples.

Results

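The genes described here encode the laminins, the integrins and other proteins of the basement membrane, the thin sheet of matrix on which epithelial and endothelial cells rest. They were taken by gene symbol from the protein-coding rows of the deposited table: every laminin α, β and γ chain, every integrin α and β chain, both nidogens, and Hspg2, Agrn, Fn1, Vtn and Sparc. The rule found 44 genes of 54532 in the table, of which 11 were laminin chains, 18 integrin α chains, 8 integrin β chains and 7 other genes. It used names and no measured value. Islets of Wtap-βKO mice, in which Wtap is meant to be lost from the β cells that make insulin, were set against islets of Wtap flox/flox mice, whose Wtap gene carries recombination sites. All mice were 7 weeks old, each sample pooled the islets of 3 mice, and each genotype had 3 samples, called independent biological replicates in the labels. The Cre line behind the deletion and the strain are not given in the sources used here. The WTAP protein belongs to the enzyme complex that places N6-methyladenosine (m6A) in RNA, and the study addresses its effect on β-cell function.

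Laminins are cross-shaped trimers of an α, a β and a γ chain, secreted and polymerised into a sheet. Nidogens, perlecan (Hspg2) and agrin (Agrn) tie that sheet to the type IV collagen network. Integrins are α and β pairs in the cell membrane that bind laminin, collagen, fibronectin or vitronectin outside the cell and the actin skeleton inside it. In mouse islets the capillaries lie in a basement membrane that the endothelial cells make, and β cells touch it through integrins with the β1 chain.

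Values are FPKM, fragments per kilobase of gene scaled between samples by the authors, so levels of different genes can be set side by side. Over genes above 0 in every sample, the median ratio to the geometric mean of the samples was 1.007 in each of the 6. By this median-of-ratios factor the deposited values were already even between samples. The libraries held between 16353297 and 18682745 recovered reads. That sum was 0.936, 0.962 and 0.965 times the library size implied by the FPKM in Wtap-βKO islets, against 1.01, 1.04 and 1.05 times in Wtap flox/flox islets. The scaling behind the FPKM therefore differed from total gene reads by group, and every fold change carries it: scaling to total recovered reads moved the median log2 fold change of all genes by 0.087. Scaling to total recovered reads, which limma voom used too, undoes the evenness by median of ratios. Wtap itself had 11.2, 11.9 and 12.3 FPKM in Wtap-βKO islets, against 10.5, 11.4 and 11.6 FPKM in Wtap flox/flox islets, and did not pass the test (log2 fold change 0.07 with an SE of 0.06, limma adjusted p = 0.475). The labels do not say which part of the gene was deleted, and the value covers the whole gene in every cell type of the islet, so it does not check the labels. Wtap-βKO islets therefore means the libraries labelled so throughout. The tissue label was met by its markers: the 10 β-cell markers summed to between 81971 and 92559 FPKM in Wtap-βKO islets and between 135142 and 155400 FPKM in Wtap flox/flox islets. In whole islets, fewer cells of a type and less RNA per cell cannot be told apart.

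Methylation of RNA was not measured, but the letters at which the WTAP complex works can be read. GGACT is a common form of the sequence around an m6A site, and m6A is known to lie most often near stop codons. Of the genes that passed the test, 5 are shown with the GGACT nearest to the stop codon of their longest annotated transcript (GENCODE M21, GRCm38), in 25 bases with the motif in capitals.
Itga2, chr13:114836403-114836427, minus strand, exon 30 of 30, 3′ UTR: tgtggtgaatGGACTtctattaaag
Itgav, chr2:83803416-83803440, plus strand, exon 30 of 30, 3′ UTR: tgaaatcccaGGACTgtattgctga
Itgb3, chr11:104667128-104667152, plus strand, exon 15 of 15, coding: acctaccgggGGACTtaatgagacc
Itgb1, chr8:128732256-128732280, plus strand, exon 16 of 16, 3′ UTR: tccatgccagGGACTgacagaagac
Sparc, chr11:55401959-55401983, minus strand, exon 6 of 10, coding: agctccacctGGACTacatcggacc
The A of the motif lay 5 bases from the last base of the stop codon in Itgb3, 70 in Itga2, 93 in Itgav, 180 in Itgb1 and 481 in Sparc. The 44 genes held between 0.435 and 2.69 GGACT per kilobase of transcript with a median of 1.17, against a median of 1.05 over the 12692 tested genes with a protein-coding transcript. Itgav held 1.98 per kilobase, Itgb3 1.56, Itga2 0.844, Itgb1 0.524 and Sparc 0.435. These are counts of letters, not of methylated sites.

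In Wtap-βKO islets, transcripts of the integrin β1 and β3 chains and of the matrix protein SPARC were higher, and those of the integrin α2 and αv chains were lower. Of the 44 genes, 31 had a mean of at least 0.5 FPKM over the 6 samples and were tested. By limma, at a Benjamini-Hochberg adjusted p under 0.05 across the whole table, 4 were higher, 2 were lower and 25 did not pass. That is 19.4% of those tested, beside 20.1% of all 15927 genes tested, so the share called was near the background and is no result about the group as a whole. By direction, 12.9% of those tested were higher and 6.45% lower, beside 8.77% and 11.3% of all genes. Of all calls 43.7% were higher, but 68.1% when FPKM was rescaled to total recovered reads, a setting in which 9 of the genes were higher and 1 was lower, beside 14.7% and 6.87% of all genes. With limma voom on recovered reads 15 were higher and 2 lower, beside 18.9% and 8.3% of all genes. The median log2 fold change of the 31 was 0.22, beside -0.0054 over all genes tested. Itgb1, Sparc, Itgb3 and Itga2 passed under each of the 16 or 17 alternative settings that could test them, whereas Itgav passed under 9 of 17. Median-of-ratios scaling, counted among these settings, divided all 6 samples by the same 1.007, so it could hardly change a call.

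**Figure D1:**
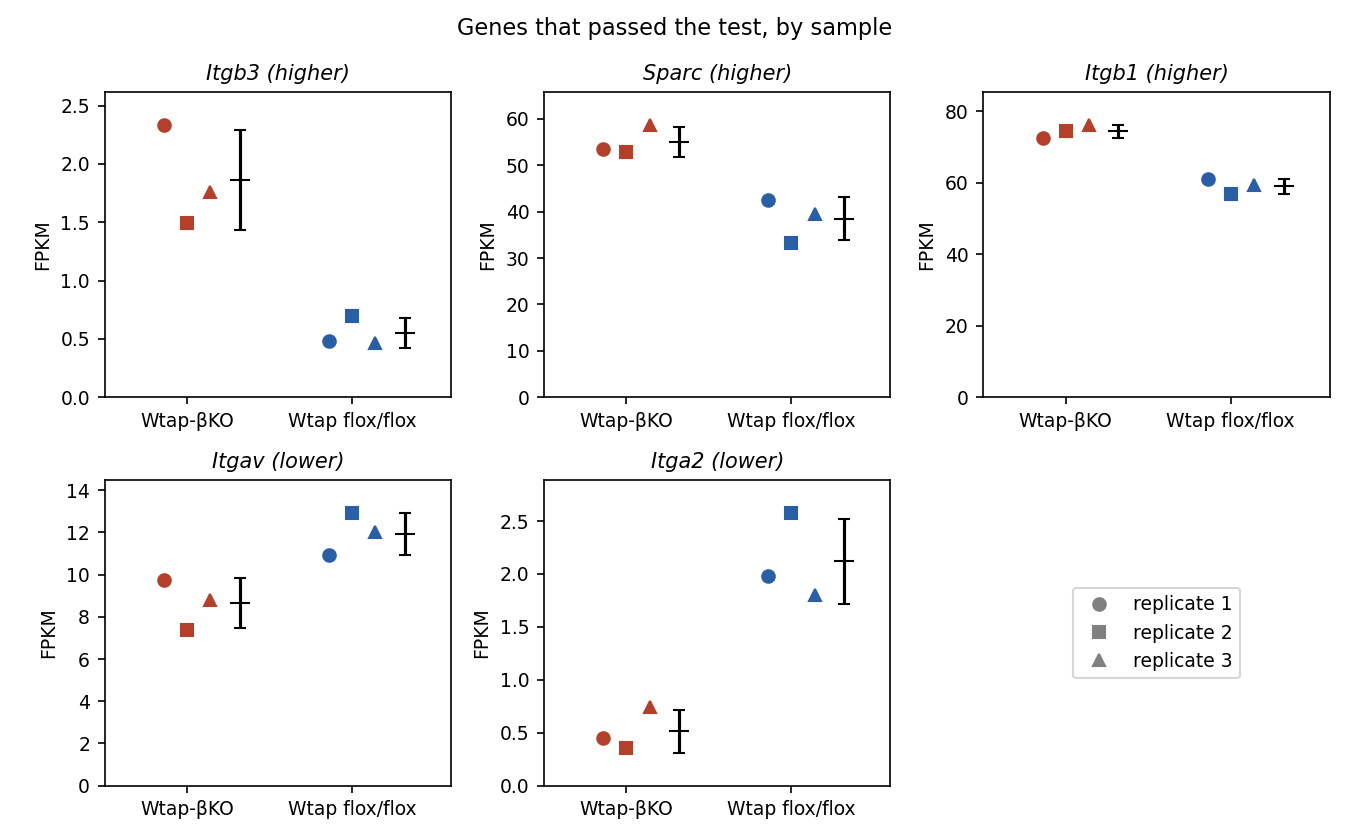
FPKM of 5 genes that passed the test, in each Wtap-βKO sample (left) and each Wtap flox/flox sample (right). Marker shapes give the replicate number, black bars the mean ± SD over 3 samples, and every axis starts at 0. In all 5 genes the groups are apart: Itga2 stays at or below 0.740 FPKM in Wtap-βKO islets and at or above 1.80 FPKM in Wtap flox/flox islets.

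Of the laminin chains, 8 were tested. Summed over all 11 chains, laminin transcripts came to 35.6 ± 2.98 FPKM in Wtap-βKO islets and 29.4 ± 2.62 FPKM in Wtap flox/flox islets (SD, n = 3 each). Lama3, the α3 chain known from epithelial laminin, averaged 1.96 ± 0.214 FPKM in Wtap-βKO islets and 1.73 ± 0.207 FPKM in Wtap flox/flox islets (SD, n = 3 each; adjusted p = 0.464 by limma). Lamb3, the β3 chain, averaged 0.106 FPKM in Wtap-βKO islets, from 9 to 17 reads a library, and 0.0759 FPKM in Wtap flox/flox islets, from 3 to 13 reads, and was too low to be tested.

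Lamc1, the γ1 chain found in most laminins, was the highest laminin gene. It had 13.0, 10.4 and 13.6 FPKM in Wtap-βKO islets, against 11.9, 9.67 and 12.1 FPKM in Wtap flox/flox islets, and the groups overlapped (adjusted p = 0.521 by limma). Below Lamc1 came, in order, Lamb1, Lamb2, Lama5, Lama4 and Lama3, and between Lamb1 and Lama3 the ranges over the 6 samples of neighbours in that order overlapped.

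The α chains decide which receptors a laminin binds. Lama5, the α5 chain of vascular and epithelial laminins, had 3.88, 3.00 and 3.88 FPKM in Wtap-βKO islets, against 2.65, 2.65 and 2.87 FPKM in Wtap flox/flox islets. The groups were apart, but it did not pass (log2 fold change 0.30 with an SE of 0.10, limma adjusted p = 0.0814). Lama2, the α2 chain of muscle and nerve laminin, had 0.958, 0.725 and 0.887 FPKM in Wtap-βKO islets, against 0.597, 0.391 and 0.475 FPKM in Wtap flox/flox islets. Those groups were also apart and did not pass (adjusted p = 0.118 by limma). Lama4, the endothelial α4 chain, averaged 2.34 ± 0.628 and 2.07 ± 0.179 FPKM in Wtap-βKO and Wtap flox/flox islets (SD, n = 3 each), with the lowest value of all 6 samples, 1.61 FPKM, in Wtap-βKO replicate 2. Of the β chains, Lamb1 averaged 5.06 ± 0.379 and 4.29 ± 0.354 FPKM in the same order and its groups did not overlap (adjusted p = 0.142 by limma). Lamb2 averaged 4.55 ± 0.578 and 3.60 ± 0.334 FPKM (adjusted p = 0.112 by limma), with Wtap-βKO replicate 1, at 3.88 FPKM, inside the control range. As shares of the summed α chains, Lama5 took 40.9% ± 1.24 in Wtap-βKO islets and 38.7% ± 1.72 in Wtap flox/flox islets, and Lama2 took 9.78% ± 0.473 and 6.93% ± 1.35 (SD, n = 3 each).

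**Figure D2:**
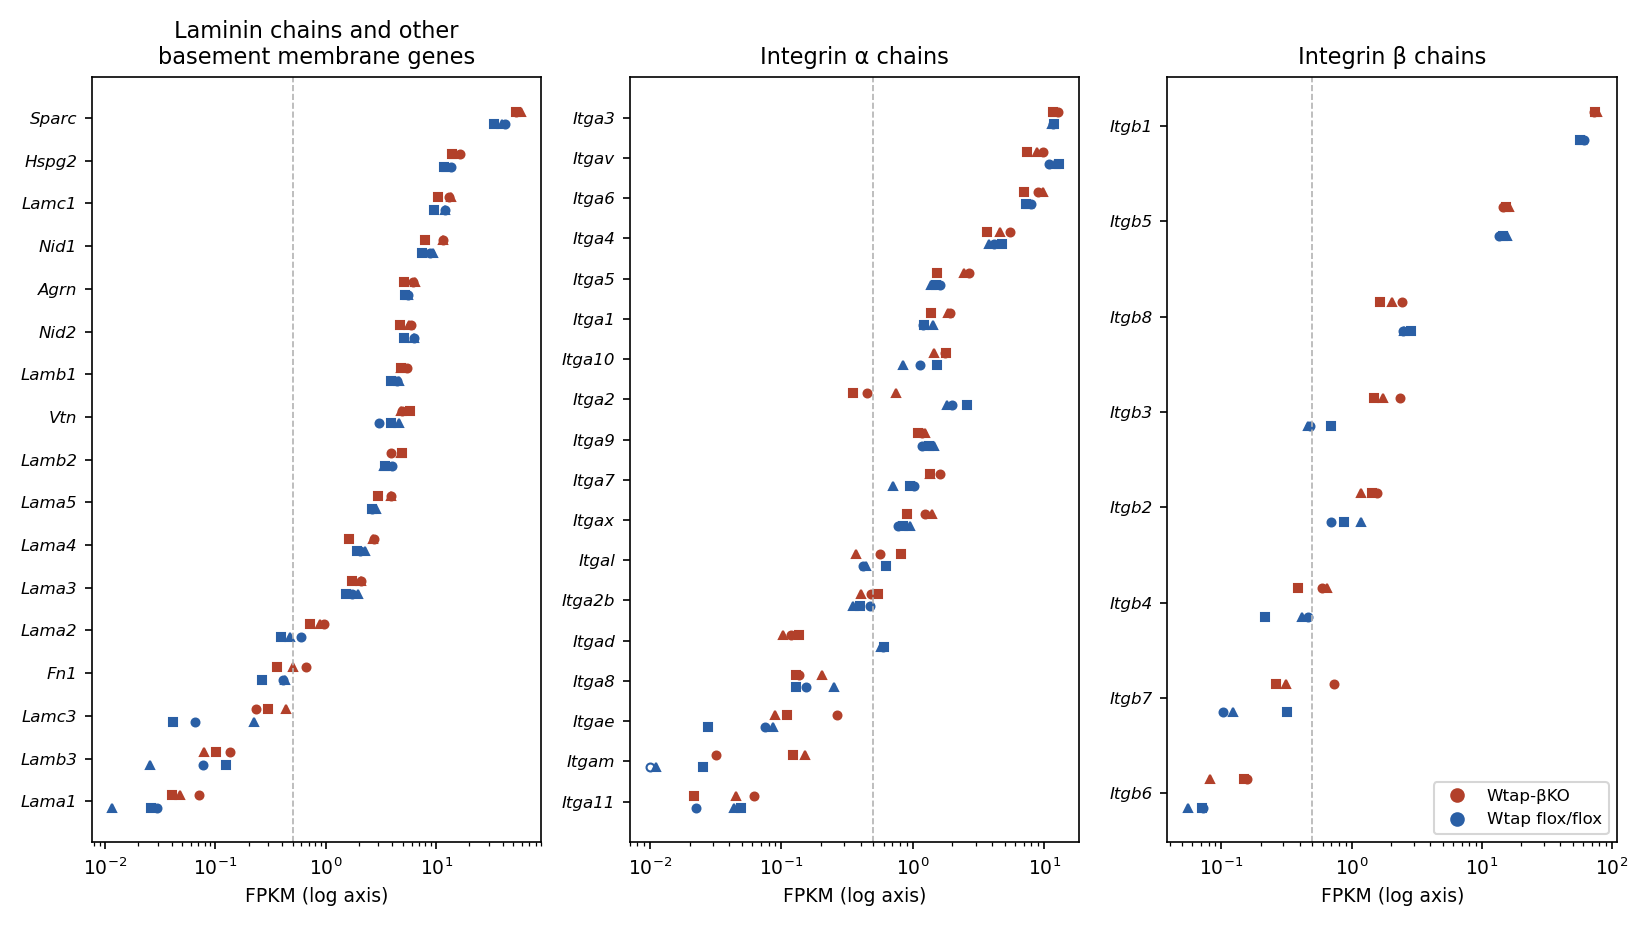
FPKM of 43 of the 44 genes in each sample on a log axis, with Wtap-βKO samples (red) drawn above Wtap flox/flox samples (blue) in each row. The dashed line marks 0.5 FPKM, and an open symbol a value of 0, drawn at the left edge. Lamc1, Itga3, Itgb1 and Sparc are the highest genes of their families, and 13 genes have a mean to the left of the line.

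Among the other basement membrane genes, Sparc (ENSMUSG00000018593, chr11:55394500-55423183, minus strand) was both the highest and the only one of 6 tested that passed. SPARC is a secreted protein that binds collagen and calcium and is known from stromal and endothelial cells. It had 53.5, 52.8 and 58.8 FPKM in Wtap-βKO islets, against 42.5, 33.4 and 39.5 FPKM in Wtap flox/flox islets. Every Wtap-βKO sample was above every control. Sparc rose 1.43-fold (log2 fold change 0.51 with an SE of 0.10, limma adjusted p = 0.0124).

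Hspg2, which encodes perlecan, the heparan sulfate proteoglycan of basement membranes, had 16.4, 13.9 and 14.8 FPKM in Wtap-βKO islets. Its controls had 13.7, 11.8 and 12.6 FPKM, and the groups were just apart. It did not pass (log2 fold change 0.23 with an SE of 0.08, limma adjusted p = 0.0953). Vtn encodes vitronectin, a ligand of integrins with the αv chain. It had 4.86, 5.78 and 4.80 FPKM in Wtap-βKO islets, against 3.01, 3.90 and 4.65 FPKM in Wtap flox/flox islets, and did not pass (adjusted p = 0.117 by limma). Nid1, nidogen 1, averaged 10.3 ± 2.14 and 8.55 ± 1.03 FPKM in Wtap-βKO and Wtap flox/flox islets (SD, n = 3 each). Nid2, nidogen 2, averaged 5.45 ± 0.694 and 5.91 ± 0.658 FPKM, and Agrn, agrin, 5.92 ± 0.701 and 5.49 ± 0.219 FPKM in the same order, and all 3 overlapped between the groups. Fn1, fibronectin, averaged 0.509 ± 0.152 FPKM in Wtap-βKO islets and 0.365 ± 0.0864 FPKM in Wtap flox/flox islets (SD, n = 3 each), below the filter.

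Both integrin β chains that passed were higher. Itgb1 (ENSMUSG00000025809, chr8:128685654-128733200, plus strand) encodes β1, which pairs with most α chains, and was the highest of all 44 genes. It had 72.5, 74.4 and 76.2 FPKM in Wtap-βKO islets, against 61.0, 56.7 and 59.4 FPKM in Wtap flox/flox islets. The groups were far apart for their spread. Itgb1 rose 1.26-fold (log2 fold change 0.33 with an SE of 0.05, limma adjusted p = 0.00709). It took 77.3% ± 0.885 of the summed β chains in Wtap-βKO islets and 75.4% ± 1.74 in Wtap flox/flox islets (SD, n = 3 each).

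Itgb3 (ENSMUSG00000020689, chr11:104608000-104670476, plus strand) encodes β3, which pairs with αv on endothelium and osteoclasts and with αIIb on platelets. It had 2.34, 1.50 and 1.76 FPKM in Wtap-βKO islets, against 0.484, 0.697 and 0.467 FPKM in Wtap flox/flox islets. The reads behind these values were 260, 158 and 179 in Wtap-βKO islets, and 50, 65 and 49 in Wtap flox/flox islets. Itgb3 rose 3.39-fold by mean FPKM (log2 fold change 0.88 with an SE of 0.14, limma adjusted p = 0.00742). Fold changes on the log2 scale are of log2(FPKM + 1), which understates the change of genes this low, and with limma voom on recovered reads that of Itgb3 was 1.88. Its share of the summed β chains was 1.94% ± 0.466 in Wtap-βKO islets and 0.704% ± 0.181 in Wtap flox/flox islets (SD, n = 3 each).

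The other tested β chains did not pass. Itgb5, which pairs with αv, averaged 15.4 ± 0.827 and 14.6 ± 1.02 FPKM in Wtap-βKO and Wtap flox/flox islets (SD, n = 3 each; adjusted p = 0.468 by limma), and the 95% interval of its log2 fold change ran from -0.088 to 0.247. Itgb8, another αv partner, had 2.44, 1.64 and 2.04 FPKM in Wtap-βKO islets, against 2.49, 2.84 and 2.52 FPKM in Wtap flox/flox islets, with the groups just apart (log2 fold change -0.26 with an SE of 0.12, limma adjusted p = 0.166). Itgb2, the leukocyte β chain, averaged 1.39 ± 0.196 and 0.914 ± 0.246 FPKM in Wtap-βKO and Wtap flox/flox islets (SD, n = 3 each; adjusted p = 0.135 by limma).

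**Figure D3:**
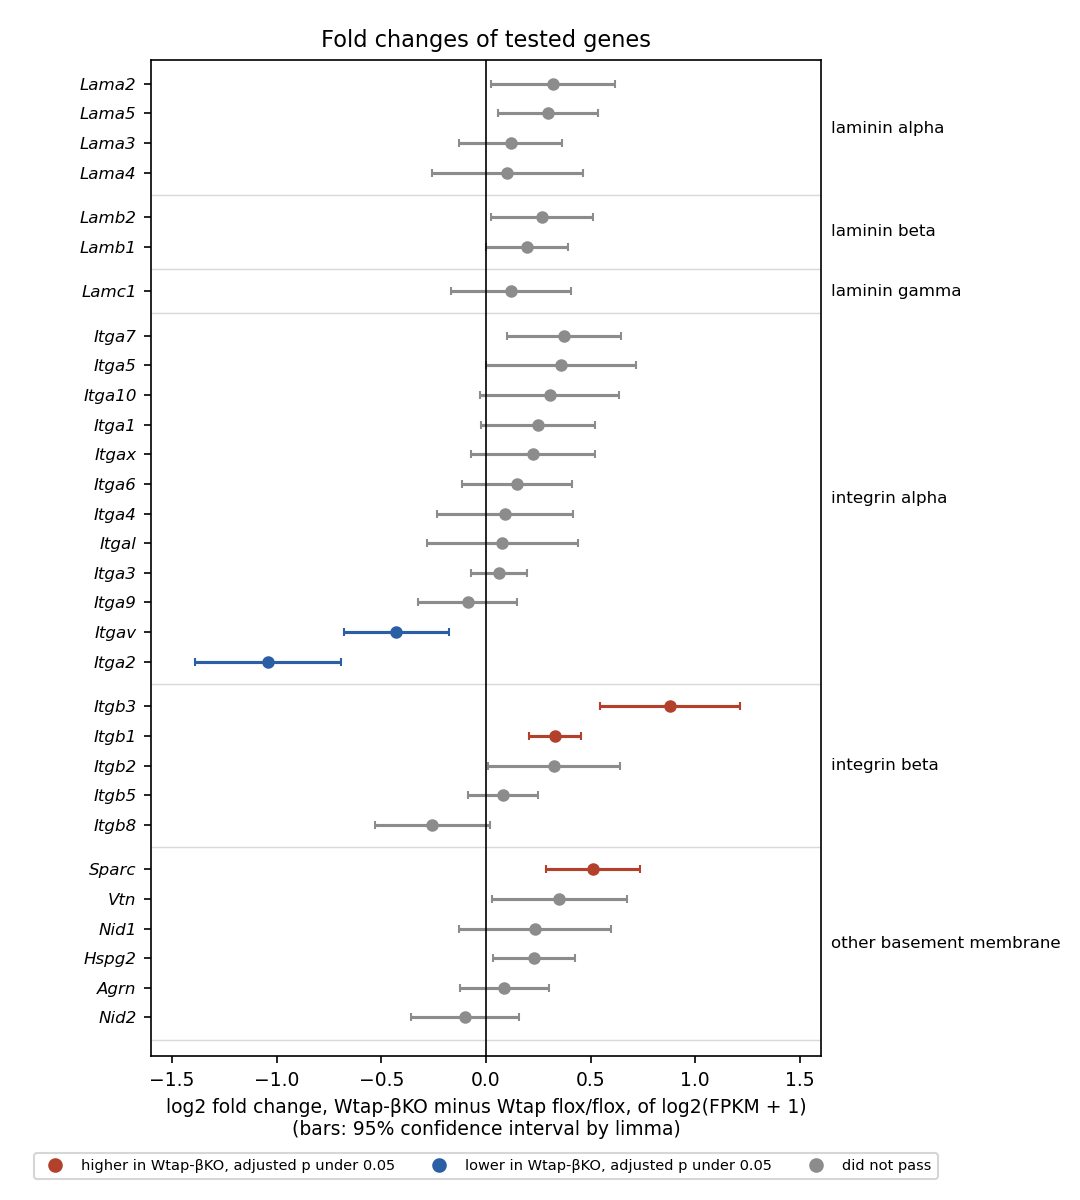
Log2 fold changes of 30 of the 31 tested genes, Wtap-βKO minus Wtap flox/flox, on the log2(FPKM + 1) scale, with 95% confidence intervals by limma. Red and blue points passed the test, and 25 of the 30 points lie above 0. Within the integrin α chains the 2 genes that passed, Itgav and Itga2, lie on the opposite side of 0 from 9 of the other 10.

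Both integrin α chains that passed were lower. Itga2 (ENSMUSG00000015533, chr13:114833081-114932100, minus strand) encodes α2, which with β1 forms a collagen receptor known from platelets and epithelia. It had 0.446, 0.352 and 0.740 FPKM in Wtap-βKO islets, against 1.98, 2.57 and 1.80 FPKM in Wtap flox/flox islets. In reads these were 60, 45 and 91 in Wtap-βKO islets, and 247, 290 and 229 in Wtap flox/flox islets. The groups were far apart, and mean FPKM was 4.13-fold lower (log2 fold change -1.04 with an SE of 0.15, limma adjusted p = 0.00467). Over the alternatives the log2 fold change of Itga2 ran from -1.97, by limma voom on recovered reads, to -0.94.

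Itga1, the α1 chain of the other widespread collagen receptor, lies beside Itga2 on chromosome 13, with 20995 bases between them on the same strand. It had 1.91, 1.38 and 1.85 FPKM in Wtap-βKO islets, against 1.19, 1.23 and 1.42 FPKM in Wtap flox/flox islets, and did not pass (log2 fold change 0.25 with an SE of 0.11, limma adjusted p = 0.177). The ratio of Itga2 to Itga1 was 0.234, 0.255 and 0.401 in Wtap-βKO islets, against 1.66, 2.10 and 1.27 in Wtap flox/flox islets. Itga2 was thus below its neighbour in every Wtap-βKO sample and above it in every control.

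Itgav (ENSMUSG00000027087, chr2:83724397-83806916, plus strand) encodes αv, the partner of β3, β5 and β8 and a receptor chain for vitronectin and latent TGF-β. It had 9.75, 7.39 and 8.81 FPKM in Wtap-βKO islets, against 10.9, 12.9 and 12.0 FPKM in Wtap flox/flox islets. The groups did not overlap, and mean FPKM was 1.38-fold lower (log2 fold change -0.43 with an SE of 0.11, limma adjusted p = 0.0317). The call of Itgav was lost, with adjusted p up to 0.0999 by limma, without Wtap-βKO replicate 3, without any 1 of the 3 controls, with rescaling without the 50 highest genes or to total reads, without a filter, and with a replicate block. The ratio of Itgav to Itgb3 was 4.17, 4.94 and 5.01 in Wtap-βKO islets, against 22.6, 18.5 and 25.7 in Wtap flox/flox islets. For Itgav over Itgb5 the ratio was 0.563 ± 0.0965 in Wtap-βKO islets and 0.821 ± 0.0550 in Wtap flox/flox islets (SD, n = 3 each).

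The remaining α chains of laminin receptors did not pass. Itga3, the α3 chain of a laminin receptor of epithelia and the highest α chain, had 12.8, 11.8 and 12.1 FPKM in Wtap-βKO islets, against 11.6, 12.0 and 11.4 FPKM in Wtap flox/flox islets. Its groups overlapped, and the 95% interval of its log2 fold change ran from -0.074 to 0.196 (adjusted p = 0.491 by limma). Itga6, the α6 chain of another laminin receptor that β cells carry, averaged 8.60 ± 1.39 and 7.61 ± 0.302 FPKM in Wtap-βKO and Wtap flox/flox islets (SD, n = 3 each; adjusted p = 0.393 by limma). Itga7, the laminin receptor chain of muscle, had 1.62, 1.36 and 1.35 FPKM in Wtap-βKO islets, against 1.02, 0.947 and 0.702 FPKM in Wtap flox/flox islets. Its groups were apart and it stood just outside the threshold (log2 fold change 0.37 with an SE of 0.12, limma adjusted p = 0.0631).

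Other α chains overlapped between the groups. Itga5, the fibronectin receptor chain, had 2.68, 1.54 and 2.46 FPKM in Wtap-βKO islets, against 1.61, 1.49 and 1.37 FPKM in Wtap flox/flox islets (adjusted p = 0.145 by limma), with Wtap-βKO replicate 2 inside the control range. Itga4, a chain of leukocyte receptors for fibronectin and VCAM1, averaged 4.60 ± 0.926 and 4.23 ± 0.524 FPKM in Wtap-βKO and Wtap flox/flox islets (SD, n = 3 each). Itga10, a collagen receptor chain of cartilage, averaged 1.66 ± 0.183 and 1.17 ± 0.348 FPKM, and Itga9 1.17 ± 0.0738 and 1.31 ± 0.138 FPKM in the same order. The leukocyte chains Itgax and Itgal averaged 1.18 ± 0.246 and 0.584 ± 0.223 FPKM in Wtap-βKO islets, and 0.859 ± 0.0945 and 0.493 ± 0.116 FPKM in Wtap flox/flox islets. Summed over 18 chains, integrin α transcripts came to 45.6 ± 4.81 FPKM in Wtap-βKO islets and 46.3 ± 2.10 FPKM in Wtap flox/flox islets, while the 8 β chains came to 96.2 ± 2.01 and 78.3 ± 1.69 FPKM (SD, n = 3 each).

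Groups that do not overlap are common in these libraries: 41.3% of all genes tested had no overlap, 19.1% with Wtap-βKO above and 22.1% with Wtap-βKO below. Among the 31 tested genes 10 lay wholly above and 3 wholly below the controls, and 7 of these 13 did not pass. They were Hspg2, Lama5, Lamb1, Vtn, Itga7 and Lama2 above, and Itgb8 below.

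Too low to be tested were 13 genes: Itgb4, Itga2b, Fn1, Itgad, Itgb7, Lamc3, Itga8, Itgae, Itgb6, Lamb3, Itgam, Itga11 and Lama1. Of these, Itgad, a leukocyte chain, had 10, 11 and 8 reads in Wtap-βKO islets, against 47, 43 and 46 reads in Wtap flox/flox islets. In FPKM it averaged 0.119 ± 0.0167 in Wtap-βKO islets and 0.591 ± 0.0156 in Wtap flox/flox islets (SD, n = 3 each), and without a filter on low values it was called lower (log2 fold change -0.51 with an SE of 0.06, limma adjusted p = 0.00708). Itgad shares 70 exon bases with Cox6a2 on the other strand, a cytochrome oxidase subunit gene at 5.76 ± 1.52 FPKM in Wtap-βKO islets and 34.8 ± 6.28 FPKM in Wtap flox/flox islets (SD, n = 3 each). On that strand Itgad also shares 388 exon bases with 4931431B13Rik, at a mean of 0.891 FPKM, and 102 with Gm39091, at 0 FPKM. On its own strand Itgad shares 330 with Gm17831, at 0 FPKM. The protocol in the labels names no step that marks strand, and the part of reads from any of these genes in the Itgad values was not tested. Lamc3, the γ3 chain, had 27, 33 and 46 reads in Wtap-βKO islets, against 7, 4 and 24 reads in Wtap flox/flox islets, and none of the other 12 was called without the filter. Itgam, the CD11b chain of myeloid cells, had 3, 11 and 13 reads in Wtap-βKO islets, against 0, 2 and 1 reads in Wtap flox/flox islets, in a gene model that shares 68.7% of its exon bases with Gm49368 on the same strand. Itgb4, the β chain of hemidesmosomes, averaged 0.547 ± 0.139 and 0.366 ± 0.131 FPKM in Wtap-βKO and Wtap flox/flox islets (SD, n = 3 each). The means of Itgb7, Itga8, Itgae, Itgb6, Itga11 and Lama1 lay between 0.0430 and 0.435 FPKM in Wtap-βKO islets and between 0.0224 and 0.182 FPKM in Wtap flox/flox islets.

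In all, 15 of the 44 genes share exon bases with another annotated gene, and of those that passed only Itgav does, with a gene model at 0.0839 FPKM. The longest overlaps were on the same strand, where Itgam shares 68.7% of its exon bases with Gm49368, listed at 0 FPKM, and Itga10 shares 33.5% with Gm42957, at 0.0468 FPKM. The values of both are uncertain, since reads there could belong to either gene. Those of Nid2 and Itga4 are uncertain too, since Rtraf, at 21.7 FPKM, and Cerkl, at 6.94 FPKM, overlap them on the other strand over 8.45% and 8.04% of their exon bases.

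**Figure D4:**
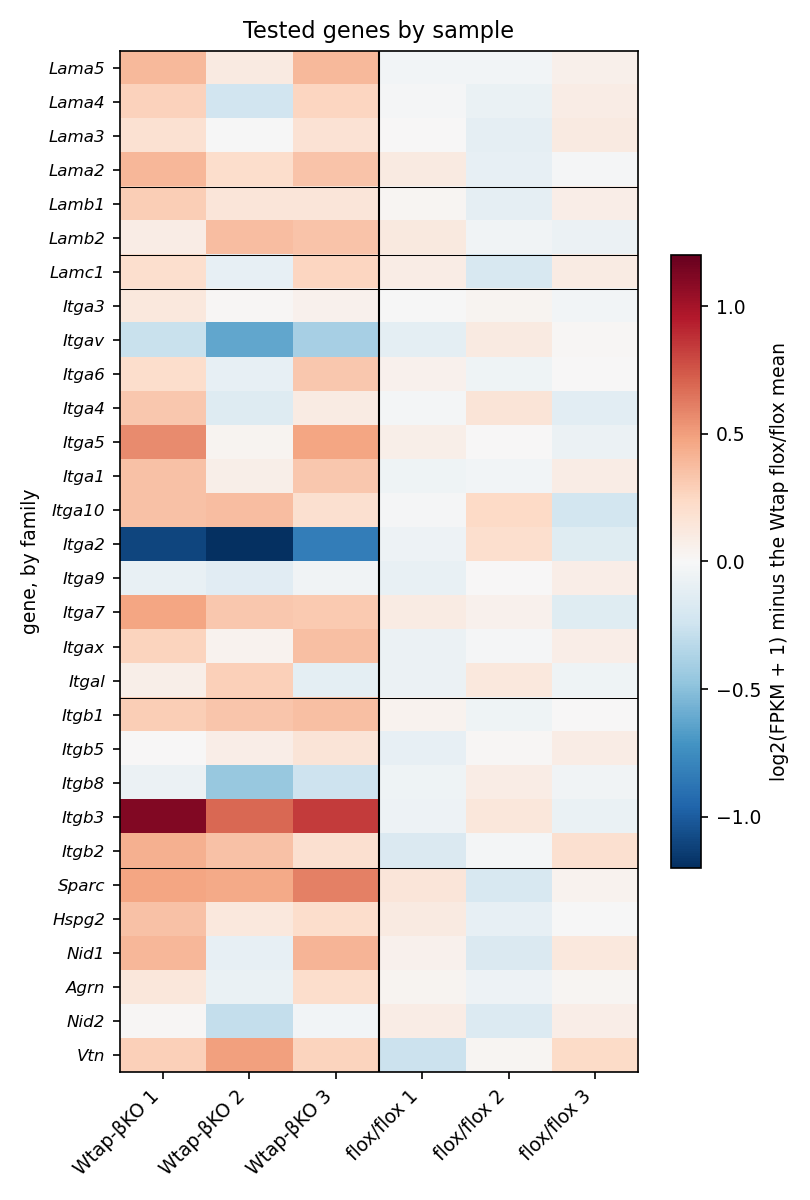
Tested genes by sample, 30 of the 31, as log2(FPKM + 1) minus the mean of the 3 Wtap flox/flox samples, with red for higher and blue for lower. Columns are Wtap-βKO replicates 1 to 3 and then Wtap flox/flox replicates 1 to 3, and rows are grouped by family. Wtap-βKO replicate 2 is paler or bluer than replicates 1 and 3 for Lama4, Lamc1, Itga6, Itga5, Itga1 and Nid1.

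One library moved several of these values. Wtap-βKO replicate 2 had the lowest value of its group for, among others, Lama2, Lama3, Lama4, Lama5, Lamc1, Nid1, Nid2, Hspg2, Agrn, Itga1, Itga5 and Itga6. Nid1, for one, had 7.88 FPKM in that sample and 11.5 and 11.6 FPKM in Wtap-βKO replicates 1 and 3. Wtap flox/flox replicate 2 was likewise the lowest control for Lama2, Lama3, Lama4, Lamc1, Nid1, Nid2, Hspg2, Agrn and Itga6. For Lama5, Itga1 and Itga5 another control was lowest. Without Wtap-βKO replicate 2, 8 of the 44 genes were higher, against 4 with it, as Lama5, Itga5, Itga6 and Nid1 passed too. The count over all genes did not rise in that setting: 1380 of 15934 genes tested were higher, against 1397 of 15927 with every sample. Replicate 2 was the lowest of each group in the basement membrane collagens as well. These summed to 118.6, 97.0 and 119.0 FPKM in Wtap-βKO replicates 1 to 3 and to 91.6, 80.1 and 91.6 FPKM in Wtap flox/flox replicates 1 to 3. Endothelial markers summed to 240.3, 257.3 and 270.2 FPKM in Wtap-βKO replicates 1 to 3 and to 226.9, 200.1 and 240.1 FPKM in Wtap flox/flox replicates 1 to 3. Plvap alone made up 96.4, 114.0 and 114.1 FPKM of the Wtap-βKO sums. Of the 15 markers, 8 had their lowest Wtap-βKO value in replicate 2, among them Cdh5 at 12.7, 9.53 and 12.3 FPKM in replicates 1 to 3. In the controls, 12 of the 15 had their lowest value in Wtap flox/flox replicate 2.

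Genes that work with these chains were counted from related lists, read beside the same 8.77% higher and 11.3% lower of all genes tested. Of 8 tested basement membrane collagens, 4 were higher and the other 4 did not pass, with a median log2 fold change of 0.39. Col6a1 and Col6a2, chains of the collagen that links basement membranes to stroma, rose 1.95-fold and 1.74-fold. Col18a1, the source of endostatin, rose 1.96-fold and Col4a2, a main chain of the type IV network, 1.33-fold. The collagen count was 2 without Wtap-βKO replicate 3.

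Of 18 tested genes of other basement membrane and matricellular proteins, 10 were higher and 3 lower, with a median log2 fold change of 0.43. Spp1, osteopontin, which binds integrins with αv, rose 2.87-fold, and Ntn4, a netrin that binds laminin γ chains, rose 1.83-fold. Fras1, which anchors epithelial basement membranes, fell to 1.58 ± 0.0764 FPKM in Wtap-βKO islets, against 3.68 ± 0.0301 FPKM in Wtap flox/flox islets (SD, n = 3 each, adjusted p = 0.000804 by limma). The related Frem2 went the other way and rose 2.69-fold (adjusted p = 0.0165 by limma). The higher count was 5 or 6 without Wtap flox/flox replicate 1 or 2 or without Wtap-βKO replicate 1 or 3.

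Laminin receptors other than integrins held 5 higher and 1 lower of 14 tested. Sdc4 and Sdc2, syndecans that carry heparan sulfate, rose 1.93-fold and 1.56-fold (adjusted p = 0.00108 and 0.00232 by limma). Cd151, a tetraspanin that associates with laminin-binding integrins, rose 1.23-fold, whereas Utrn, utrophin, which ties dystroglycan, a laminin receptor, to actin, was lower (log2 fold change -0.61). Dag1, the gene of dystroglycan itself, was higher by 1.25-fold (adjusted p = 0.0228 by limma). The higher count was 2 or 3 without any 1 library other than Wtap-βKO replicate 2.

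Inside the cell, integrins signal through adaptors and kinases. Of 31 tested integrin adaptors and focal adhesion kinases, 3 were higher, Crk, Zyx and Dock1, and 2 were lower, Rap1a and Bcar1, with a median log2 fold change of 0.06. The sum of all 32 ran from 392.5 to 395.6 FPKM in Wtap-βKO islets and from 389.1 to 397.0 FPKM in Wtap flox/flox islets. Without any 1 library other than Wtap-βKO replicate 2 at most 1 was higher, and without any 1 library other than Wtap-βKO replicate 3 only 1 was lower. Of 18 tested matrix proteases and inhibitors, 5 were higher and 1 lower. Timp2, an inhibitor of matrix metalloproteases, rose 1.75-fold, Mmp15, a membrane-bound member of that family, rose 1.43-fold, Serpine2, a serine protease inhibitor, rose 1.53-fold, and Adam9, a membrane protease that also binds integrins, was lower (log2 fold change -0.58). Without Wtap flox/flox replicate 1 or 3, or without Wtap-βKO replicate 1 or 3, the higher count was 2 or 3.

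Some markers of the cell types that make basement membrane were higher too. Of 13 tested markers of mesenchymal, stellate and pericyte cells, 7 were higher, led by Mgp, Col1a2, Col3a1 and Bgn, and the 14 markers summed to between 105.4 and 121.8 FPKM in Wtap-βKO islets and between 69.7 and 81.9 FPKM in Wtap flox/flox islets. Of 13 tested endothelial markers, 2 were higher, Egfl7 and Eng, and 15 markers summed to between 240.3 and 270.2 FPKM in Wtap-βKO islets and between 200.1 and 240.1 FPKM in Wtap flox/flox islets. Both endothelial calls were lost without any 1 library other than Wtap-βKO replicate 2, whereas limma voom called 8. Sparc, Itgb1 and Itgb3 were higher in the same libraries, and the part of either cell type in their values was not tested.

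Leukocyte and platelet markers bear on the leukocyte integrins and on Itgb3, Itga2 and Itga2b. Of 11 tested macrophage markers, 1 was higher, Lyz2, and the 12 summed to between 158.7 and 186.7 FPKM in Wtap-βKO islets and between 141.0 and 157.6 FPKM in Wtap flox/flox islets. Of 3 tested lymphocyte markers, Igkc was higher and Cd79a lower, and 7 of the 11 lymphocyte markers stayed below 0.5 FPKM in every Wtap-βKO sample. The lymphocyte list summed to between 51.8 and 59.7 FPKM in Wtap-βKO islets and between 15.2 and 16.2 FPKM in Wtap flox/flox islets. Igkc, an immunoglobulin light chain gene, made up 45.9 ± 4.26 FPKM of it in Wtap-βKO islets and 4.18 ± 0.844 FPKM in Wtap flox/flox islets (SD, n = 3 each). The other 10 lymphocyte markers summed to 12.9, 7.93 and 10.6 FPKM in Wtap-βKO islets, against 11.1, 12.0 and 11.6 FPKM in Wtap flox/flox islets, so without Igkc the sums overlapped. That sum joins genes that moved in opposite directions. Cd79a averaged 2.49 ± 1.08 FPKM in Wtap-βKO islets and 8.06 ± 0.302 FPKM in Wtap flox/flox islets (SD, n = 3 each). Ighm, an immunoglobulin heavy chain gene, averaged 7.05 ± 3.41 and 3.02 ± 0.399 FPKM in the same order. Its groups were just apart, but it did not pass (adjusted p = 0.0860 by limma). The platelet and red blood cell list summed to between 45.8 and 53.5 FPKM in Wtap-βKO islets and between 30.1 and 34.8 FPKM in Wtap flox/flox islets, of which the 4 hemoglobin genes made up between 44.4 and 52.6 FPKM and between 29.1 and 33.7 FPKM in the same order. The 4 platelet genes, Pf4, Ppbp, Gp1ba and Gp9, summed to 0.890, 1.39 and 1.19 FPKM in Wtap-βKO islets, against 0.739, 1.11 and 0.923 FPKM in Wtap flox/flox islets, and the groups overlapped. Ppbp and Gp9 had 0 or 1 read in each Wtap-βKO sample and between 0 and 4 reads in each Wtap flox/flox sample. In the list of platelet and red blood cell genes 1 of 5 tested was higher, Hbb-bs, and Itga2b, the platelet partner of β3, averaged 0.474 ± 0.0694 FPKM in Wtap-βKO islets and 0.405 ± 0.0609 FPKM in Wtap flox/flox islets (SD, n = 3 each). Of 9 tested acinar markers 1 was higher, Ctrb1, against 5 without Wtap flox/flox replicate 3 and 2 without Wtap-βKO replicate 3, a call lost without any other 1 library, and of 11 tested ductal markers 1 was higher, Spp1, and 1 lower, Cldn7. Acinar markers summed to between 158.3 and 226.6 FPKM in Wtap-βKO islets and between 94.0 and 161.6 FPKM in Wtap flox/flox islets, and ductal markers to between 338.0 and 411.9 FPKM and between 341.3 and 372.8 FPKM in the same order. Of 9 tested Schwann cell and neuron markers limma called 0 after adjustment, with 3 at an unadjusted p under 0.05 and 3 called by limma voom, and their list summed to between 48.0 and 52.6 FPKM in Wtap-βKO islets and between 40.03 and 57.3 FPKM in Wtap flox/flox islets. Of the islet cells themselves, 8 of 10 β-cell markers were lower, led by Slc2a2, Mafa, Nkx6-1 and Slc30a8. Of 9 markers of α, δ and PP cells 5 were higher, Ttr and Sst among them, and 3 were without Wtap-βKO replicate 3 or without Wtap flox/flox replicate 2 or 3. Without Wtap-βKO replicate 2, 2 lymphocyte and 2 platelet or red blood cell genes were higher, as were 2 of the second list without Wtap flox/flox replicate 2, and 1 Schwann cell or neuron marker was higher without Wtap flox/flox replicate 1. The part of these cell types in the values of the genes that passed was not tested.

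Both integrin genes that passed and were lower, Itga2 and Itgav, have a promoter in the RefSeq table (GRCm38.p6). The 250 bases before each of these start sites are shown.
Itga2, chr13:114932101-114932350, minus strand: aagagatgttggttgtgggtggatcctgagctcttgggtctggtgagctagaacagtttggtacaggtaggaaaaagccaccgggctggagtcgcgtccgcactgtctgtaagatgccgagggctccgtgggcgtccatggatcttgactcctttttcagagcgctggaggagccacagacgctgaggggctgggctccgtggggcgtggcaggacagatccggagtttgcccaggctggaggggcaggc
Itgav, chr2:83724147-83724396, plus strand: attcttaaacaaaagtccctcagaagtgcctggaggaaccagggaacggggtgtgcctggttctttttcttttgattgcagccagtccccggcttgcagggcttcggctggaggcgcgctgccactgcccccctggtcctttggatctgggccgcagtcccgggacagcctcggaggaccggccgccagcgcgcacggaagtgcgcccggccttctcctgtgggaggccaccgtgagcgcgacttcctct
The table held a promoter for 28 of the 44 genes. Both strands were searched for the Sp1 box GGGCGG, for TATAAA at which polymerase II assembles, for the NF-Y box CCAAT, for the AP-1 site TGANTCA, for the E-box CACGTG, for the Maf core TGCTGA and for the ETS core CCGGAAG, none of which is part of another. None of these letters stood in either window, so no base is in capitals. Of the other genes that passed, Itgb1 and Sparc also have a promoter in the table. GGGCGG stood in the window of Itgb1 and TGCTGA in that of Sparc, which are not shown. GGGCGG stood in 32.7% of all 32851 promoters and in 11 of the 28 genes, CCAAT in 33.8% and 5, TGCTGA in 16.1% and 5, and TATAAA in 12.4% and 1. The 3 other motifs stood in 6.02% to 6.91% of all promoters and in 0 or 1 of the 28 genes. A gene was counted if any of its promoters held the motif, whereas the shares count each promoter, so the units differ. GC content was 60.8% for Itga2 and 64.4% for Itgav, beside a median of 52.4% over all promoters.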

How the data were processed

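The sequenced RNA came from whole islets of 6 samples. The deposited table gives FPKM and gene length per gene; FPKM were made by the authors and used as deposited. The submitters' processing notes name CASAVA, HISAT2 2.0.5, featureCounts 1.5.0-p3, DESeq2 1.20.0, GRCm38 and mm10, with no role or order. FPKM times gene length fell on whole multiples of 1 read for 100.0% of values above 0 (within 0.01 read), and 16353297 to 18682745 reads a library were recovered. Recovered reads are used for depth and for limma voom only.

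Genes with a mean of at least 0.5 FPKM were tested with limma 3.58.1 in R 4.3.3 on log2(FPKM + 1), Wtap-βKO minus Wtap flox/flox, with a variance trend, two-sided, and Benjamini-Hochberg adjustment at 0.05 over 15927 genes. The steps were tested on simulated data. Tables and figures were made with Python 3.11.15, pandas 2.3.3, numpy 2.4.6 and matplotlib 3.10.9. Alternatives were 4 scalings, other pseudocounts (0.1, 0.5), filters (none, 5 FPKM) and variance models, a replicate block, and leaving out each sample. Of the scalings, median of ratios divided all samples by the same factor, 1.007, and so left their relation to each other as deposited.

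The genes and lists were chosen with earlier results of these data known. Every gene of the families is counted, but some genes of the families and lists are not reported here; of each related or marker list up to 4 called genes are named by smallest adjusted p; Bcar1, Cox6a2, Plvap, Cdh5 and the platelet genes were named, and Igkc was set apart, after their values were seen. Exon overlaps and coordinates come from GENCODE M21 (GRCm38), promoters from RefSeq (GRCm38.p6). Each sample pooled 3 mice, so p-values measure the spread between pools.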

Additional observations from a re-analysis of the deposited data

How the results depend on the processing

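Among the 44 genes, Itgb1, Sparc, Itgb3 and Itga2 kept direction and call under every alternative that tested them, and Itgav kept its direction. Itga4, never called, was the only one to change sign, with log2 fold changes from -0.027 to 0.21 as single samples were left out. Scaling to total recovered reads gave 2334 genes higher and 1094 lower, and among the genes described 9 higher and 1 lower. It also gave higher calls for 8 other laminin receptors, 6 adaptors (1 lower), 6 endothelial, 4 acinar, 2 macrophage, 1 Schwann cell and 2 platelet list genes. limma voom, which moved the median of all genes by 0.11, gave 3004 higher, 15 of them described here. Its list counts were 10 laminin receptors, 6 adaptors (1 lower), 8 proteases, 8 α, δ and PP, 8 endothelial, 7 acinar, 3 ductal, 4 macrophage, 2 lymphocyte, 3 Schwann cell and 2 platelet list genes higher, and 1 collagen lower. Quantile normalization gave 1 collagen and 1 adaptor lower and 2 macrophage genes higher. Rescaling without the 50 highest genes gave 1 of the genes described and 1 adaptor lower, and 3 acinar, 2 macrophage and 1 Schwann cell genes higher. With no filter 6 matricellular genes, 1 adaptor (1 lower), 2 proteases, 3 α, δ and PP, 0 endothelial, 0 acinar and 1 Schwann cell genes were higher. At a mean of at least 5 FPKM fewer genes could be tested, and 2 of the genes described were higher and 1 lower, with 2 collagens, 5 matricellular genes (1 lower), 1 adaptor, 1 protease, 3 mesenchymal, 4 acinar and 2 platelet list genes higher. Without a variance trend 1 collagen and 1 adaptor were lower, and 1 endothelial, 0 acinar and 2 platelet list genes higher.

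Same-numbered samples were not treated as pairs: their deviations from the group means correlated at only 0.03, 0.04 and 0.02 across genes. Correlations this small cannot tell whether the numbers paired the samples. A replicate block gave 1148 genes higher and 1490 lower, 5 and 1 among the genes described, and 0 adaptors (1 lower) and 0 acinar genes higher. Each sample correlated best with its own number, a hint of pairing from the data and not the design.

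Leaving out single samples gave 782 to 1380 genes higher and 1027 to 1853 lower, and 4 to 8 higher and 1 to 2 lower among the genes described. Higher counts ran from 2 to 6 collagens, 5 to 9 matricellular genes, 2 to 4 laminin receptors, 0 to 3 adaptors (1 to 2 lower), 2 to 5 proteases, 3 to 5 α, δ and PP, 0 to 2 endothelial, 0 to 5 acinar, 1 to 2 lymphocyte, 0 to 1 Schwann cell and 1 to 2 platelet list genes. Except where noted, the cause of these shifts was not tested. Depth limits the 13 genes below 0.5 FPKM, some of which rest on fewer than 10 reads a library.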
